A study of Homo sapiens with 12 samples.

Results

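The genes described here are 44 that drive or carry out entry into S phase: E2F transcription factors and targets of E2F, and the factors that license origins, unwind and copy DNA, supply nucleotides and package the new DNA. They were identified by symbol. All 44 were found among the 56634 gene symbols of the count table, and all 44 passed the filter on low counts, as did 14822 genes in all. Expression was measured by bulk RNA sequencing in HEK293 cells, a human embryonic kidney line transformed with adenovirus DNA, whose early viral proteins are known to bind the RB family that holds E2F factors in check. The viral genes are not among the genes counted here.

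There were 4 groups of 3 biological replicates, 12 libraries in all. TNF_SnxB cells received 1 µM Senexin B for 3 h in total, with 10 ng/mL TNFα present for 2 h after the first 1 h. SnxB cells received 1 µM Senexin B for 3 h. TNF cells received 10 ng/mL TNFα for 2 h after a pretreatment of 1 h, 3 h in total, with 0.1% DMSO as the solvent control. The DMSO content of the groups with Senexin B is not given. DMSO cells received 0.1% DMSO for 3 h. Senexin B is a small-molecule inhibitor of CDK8 and CDK19, the kinases of the Mediator complex, and TNFα is a cytokine that switches on NF-kB target genes. All cells were of this single line, and no group carried a genetic change relative to another.

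Before S phase, the MCM2-7 complex is loaded on origins of replication by ORC, CDC6 and CDT1. It is then activated by CDC7, CDC45, GINS and cyclin E-CDK2, after which the primase and polymerases copy the DNA on the sliding clamp PCNA. E2F1, E2F2 and E2F3 activate most of these genes at the G1/S boundary, and E2F7 and E2F8 later repress them. In an asynchronous culture a lower level of such an mRNA can mean fewer cells in S phase or less of the mRNA per cell, and these cannot be told apart in bulk RNA.

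Senexin B alone lowered 5 of the 44 genes, RRM2, SLBP, UNG, CDC25A and E2F3, by between 0.21 and 0.37 on the log2 scale, and raised none. The same 5 were lower in TNF_SnxB than in TNF cells. No helicase, origin licensing, polymerase or clamp gene passed that test with Senexin B alone, although MCM4, PCNA, MCM3 and CDT1 passed in some alternative fits. With TNFα alone none of the 44 passed, and MCM2, TYMS and MCM7 passed as slightly higher in some alternative fits. In TNF_SnxB cells a further 13 genes passed as lower and 1 as higher against TNF, and of these CDT1 also passed with TNF_SnxB replicate 1 alone but not with GC content and length corrected. Of the same further genes, MCM3, MCM7 and CCNE1 passed as lower with GC content and length corrected. TNF_SnxB replicates 2 and 3 carried a trend with the GC content of transcripts.

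Library totals ran from 8705277 to 50943310 counts, with TNF replicate 2 the deepest, and 3 counts corresponded to 0.0589 to 0.345 CPM, the reads of a gene scaled to the size of its library. The 44 genes were well above that floor in every library. Levels are given as CPM scaled by the TMM method, and as CPM per kilobase of exon where genes are compared. The TNF treatment showed in NFKBIA, an NF-kB target, which averaged 174 CPM in TNF_SnxB, 30.8 CPM in SnxB, 271 CPM in TNF and 27.3 CPM in DMSO cells. Of genes known to be expressed in HEK293 cells, NEFL and INA averaged 56.9 and 40.3 CPM in DMSO cells, and LHX1 averaged 5.34 CPM. PAX2 and NEFM averaged under 1 CPM. The leukocyte, endothelial and fibroblast markers PTPRC, CD3E, PECAM1, CDH5, COL1A2 and DCN were at or near 0, and COL1A1 averaged 14.6 CPM.

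In TNF_SnxB replicates 2 and 3 the deviation of a gene from its mean over the 12 libraries fell with the GC content of its transcripts. Spearman's rho over 13464 genes with a GC value was -0.692 in each of these 2 libraries, 0.135 in TNF_SnxB replicate 1, and between -0.117 and 0.458 in the other 9 libraries. Over the 44 genes, whose transcripts had a median GC content of 48.6%, the values were -0.822 in TNF_SnxB replicate 2, -0.874 in replicate 3 and 0.525 in replicate 1. Counts of replicates 2 and 3 differed from each other by 1.196 times the variance of counting noise, whereas those of replicate 1 differed from them by 5.34 and 5.09 times; pairs within the other groups were at 1.06 to 1.54 times. The members' calls in each comparison that uses TNF_SnxB are therefore given with all its libraries, with GC content and length corrected, and with replicate 1 alone.

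The promoters of the genes lowered by Senexin B are shown because they carry, or lack, the letters read by E2F factors and by NF-Y. The E2F letters are the best known element of genes with peak expression at G1/S. The letters of NF-Y are common in promoters in general, at 34.6% of all windows, and so are not specific to such genes. The windows run 5′ to 3′ on the strand of the gene, from 250 bases before to 50 bases after the start site, from RefSeq on GRCh38.p14. Capitals mark the E2F letters (TTTCCCGC, TTTCGCGC, TTTGCCGC or TTTGGCGC on either strand) and CCAAT on either strand, the letters bound by NF-Y.
CDC25A, chr3:48188368-48188667 (minus strand): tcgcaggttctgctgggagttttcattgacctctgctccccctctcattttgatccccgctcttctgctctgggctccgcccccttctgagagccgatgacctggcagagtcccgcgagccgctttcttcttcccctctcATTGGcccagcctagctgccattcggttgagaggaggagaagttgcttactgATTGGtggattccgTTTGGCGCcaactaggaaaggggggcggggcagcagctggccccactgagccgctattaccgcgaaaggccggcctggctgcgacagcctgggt
E2F3, chr6:20401629-20401928 (plus strand): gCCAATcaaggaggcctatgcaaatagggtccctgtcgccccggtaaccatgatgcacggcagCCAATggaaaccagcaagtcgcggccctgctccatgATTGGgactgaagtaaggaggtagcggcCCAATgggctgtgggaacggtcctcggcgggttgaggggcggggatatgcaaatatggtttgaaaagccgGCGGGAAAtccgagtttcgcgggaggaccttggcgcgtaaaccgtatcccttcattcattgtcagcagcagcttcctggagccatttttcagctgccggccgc
RRM2, chr2:10122489-10122788 (plus strand): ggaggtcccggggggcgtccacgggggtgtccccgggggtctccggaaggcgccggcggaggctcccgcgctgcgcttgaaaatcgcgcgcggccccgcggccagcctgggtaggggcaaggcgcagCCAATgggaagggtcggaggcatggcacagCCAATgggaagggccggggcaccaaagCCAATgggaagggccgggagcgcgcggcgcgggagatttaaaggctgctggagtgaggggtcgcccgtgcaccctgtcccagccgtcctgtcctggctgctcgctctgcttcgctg
SLBP, chr4:1712270-1712569 (minus strand): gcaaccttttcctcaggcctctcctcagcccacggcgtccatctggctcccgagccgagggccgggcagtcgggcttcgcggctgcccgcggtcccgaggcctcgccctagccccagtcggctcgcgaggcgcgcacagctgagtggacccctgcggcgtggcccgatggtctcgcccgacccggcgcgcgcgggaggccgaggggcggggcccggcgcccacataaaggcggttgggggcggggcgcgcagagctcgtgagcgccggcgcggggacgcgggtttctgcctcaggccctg
UNG, chr12:109097922-109098221 (plus strand): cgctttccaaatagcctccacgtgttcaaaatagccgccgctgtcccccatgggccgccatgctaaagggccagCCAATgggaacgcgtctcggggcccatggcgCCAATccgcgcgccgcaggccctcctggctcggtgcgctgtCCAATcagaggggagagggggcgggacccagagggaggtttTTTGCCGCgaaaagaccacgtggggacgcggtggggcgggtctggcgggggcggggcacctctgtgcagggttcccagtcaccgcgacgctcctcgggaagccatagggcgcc

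CDC25A, E2F3 and UNG each held 1 copy of the E2F letters in the window shown, at positions -44, -53 and -63 from the start site. E2F3 and UNG each have a second start in RefSeq whose window held none of the E2F letters. RRM2 held 3 copies of CCAAT and none of the E2F letters in the window shown, its second window held none of them either, and the SLBP window held neither motif. RefSeq windows were found for 38 of the 44 genes, 49 windows in all because some genes have several starts, and matches of the 2 motifs were counted separately whether or not they overlapped. The E2F letters occurred in 20 of the 49 windows (40.8%), against 1164 of 35116 windows of all genes (3.31%). CCAAT occurred in 31 of the 49 windows (63.3%), against 34.6% of all windows, and the mean GC content was 65.8%, against 57.5%. Of the 5 genes lowered by Senexin B, 3 had the E2F letters and 4 had CCAAT in at least 1 window, against 17 and 21 of the other 33. These matches describe the letters only, and no binding was measured.

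The 44 genes differed widely in abundance. In DMSO cells PCNA, the sliding clamp, stood at 235 CPM per kilobase, MCM7, a helicase subunit, at 217 CPM per kilobase, MCM3, another subunit, at 152.5 CPM per kilobase, and TYMS, which makes thymidylate, at 128 CPM per kilobase. The lowest were CCNE2, a cyclin E, at 5.05 CPM per kilobase, GINS4 at 5.78, and the E2F factors E2F8 and E2F2 at 6.46 and 6.87. Summed over the 44 genes, the level was 7807 ± 163 CPM in TNF_SnxB, 7893 ± 14.9 CPM in SnxB, 8377 ± 14.1 CPM in TNF and 8260 ± 47.7 CPM in DMSO cells (SD, n = 3 each). Every library of the 2 groups with Senexin B had a lower sum than every library of the 2 groups without it.

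**Figure D1:**
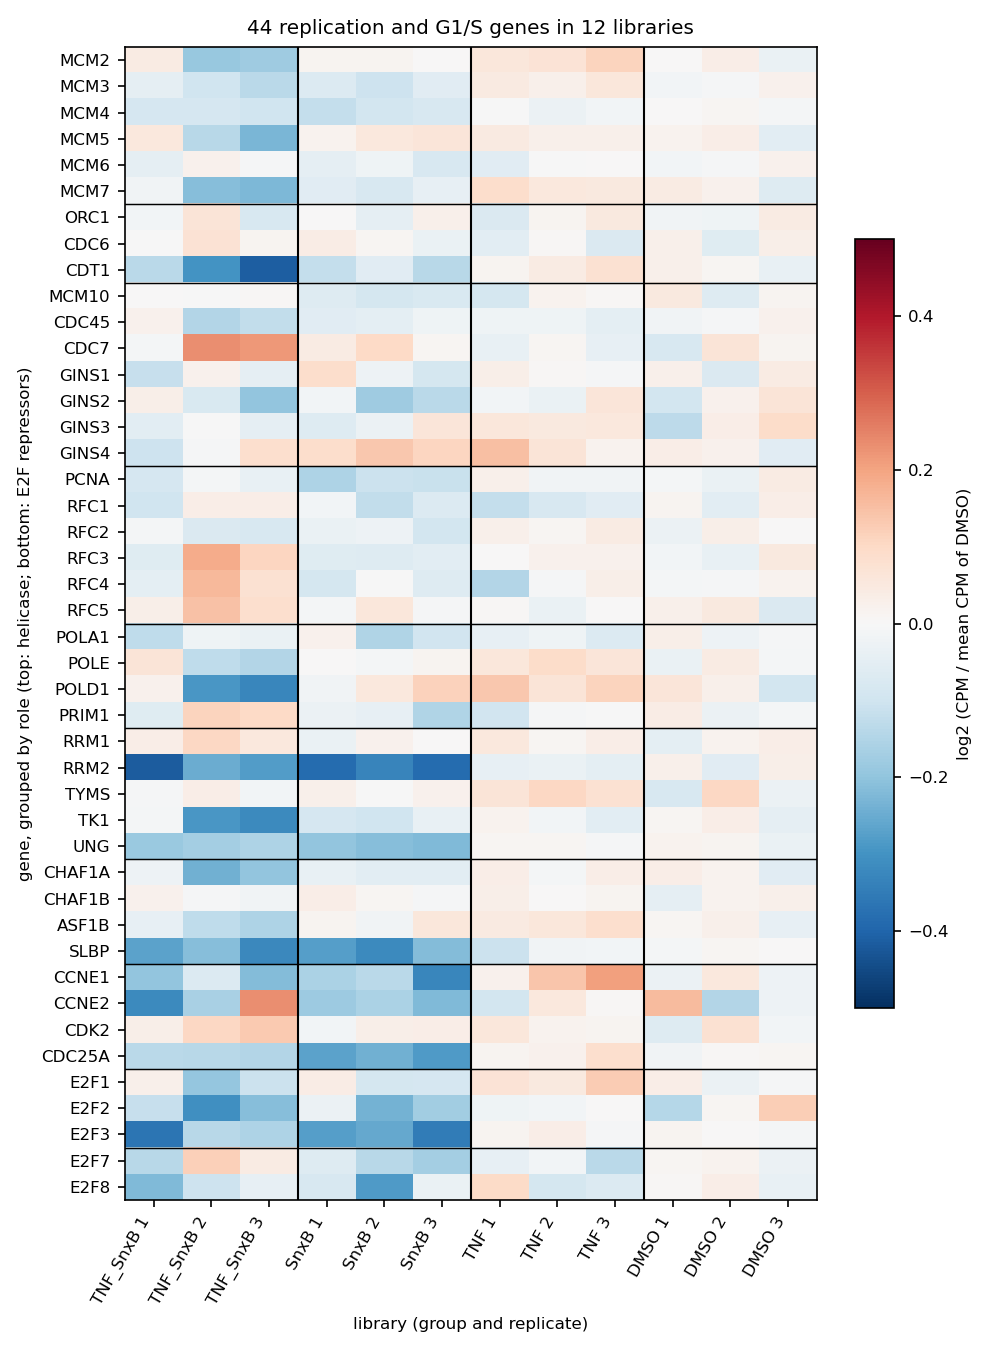
Each cell is log2 of the CPM of a gene in a library over its mean CPM in DMSO cells, for the 44 genes (rows, by role) and 12 libraries (columns, by group). RRM2, SLBP, UNG, CDC25A and E2F3 are below 0 in all 6 libraries with Senexin B, and TNF_SnxB replicates 2 and 3 stand apart from replicate 1 in many other rows.

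Senexin B alone was set against DMSO to ask what the inhibitor does without TNFα. Of the 44 genes, 5 (11.4%) fell and 0 rose at an adjusted p under 0.05 by edgeR's quasi-likelihood test, where 1.69% of all 14822 genes fell and 0.344% rose. Only 8101 of the 14822 genes have a mean level within the range of the 44, and the share called among those is not given. The median log2 fold change of the 44 genes was -0.05, against 0.00 over all tested genes, and 32 of the 44 were below 0. All 3 SnxB libraries were below all 3 DMSO libraries for 17 of the 44 genes (38.6%), which held for 10.9% of all tested genes, and all 3 were above for 1 (2.27%), against 9.49%.

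RRM2, the small subunit of ribonucleotide reductase that supplies deoxynucleotides (chr2:10120698-10131419 on GRCh38, GENCODE 29), had 272, 282 and 272 CPM in SnxB cells, against 361, 342 and 362 CPM in DMSO cells. The groups did not overlap, and the highest SnxB library was lower than the lowest DMSO library by more than the spread within either group. The log2 fold change was -0.37 ± 0.041 (SE), a fold of 0.775, with an adjusted p of 2.61e-07. In GENCODE 29 RRM2 shares 20.2% of its exon length with the gene AC007240.1 on the same strand. Reads there cannot be assigned to either gene if both were counted, and the annotation used in the counting is not given.

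SLBP, the protein that binds the stem-loop of histone mRNAs and so ties histone supply to S phase (chr4:1692800-1712555), had 148, 144 and 154 CPM in SnxB cells, against 178, 180.2 and 179 CPM in DMSO cells. The DMSO libraries lay close together and all were above the SnxB libraries. SLBP fell by 0.27 ± 0.044 on the log2 scale (SE), with an adjusted p of 0.000224.

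CDC25A, the phosphatase that activates cyclin E-CDK2 (chr3:48157146-48188402), had 108, 110.1 and 107 CPM in SnxB cells, against 128, 131 and 131 CPM in DMSO cells. Again the groups were apart with little spread. This was a log2 fold change of -0.26 ± 0.044 (SE), with an adjusted p of 0.000294.

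E2F3, an activator E2F (chr6:20401906-20493715), had 88.5, 89.6 and 84.1 CPM in SnxB cells, against 108, 107 and 106 CPM in DMSO cells, and the groups did not overlap. E2F3 had a log2 fold change of -0.29 ± 0.053 (SE), with an adjusted p of 0.001. The other activators E2F1 and E2F2 had log2 fold changes of -0.05 and -0.15, which did not pass the test.

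UNG, the glycosylase that removes uracil from DNA (chr12:109097574-109110992), had 156, 155 and 154 CPM in SnxB cells, against 182, 181 and 175 CPM in DMSO cells. All SnxB libraries were below all DMSO libraries. UNG fell by 0.21 ± 0.040 on the log2 scale (SE), with an adjusted p of 0.0016.

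**Figure D2:**
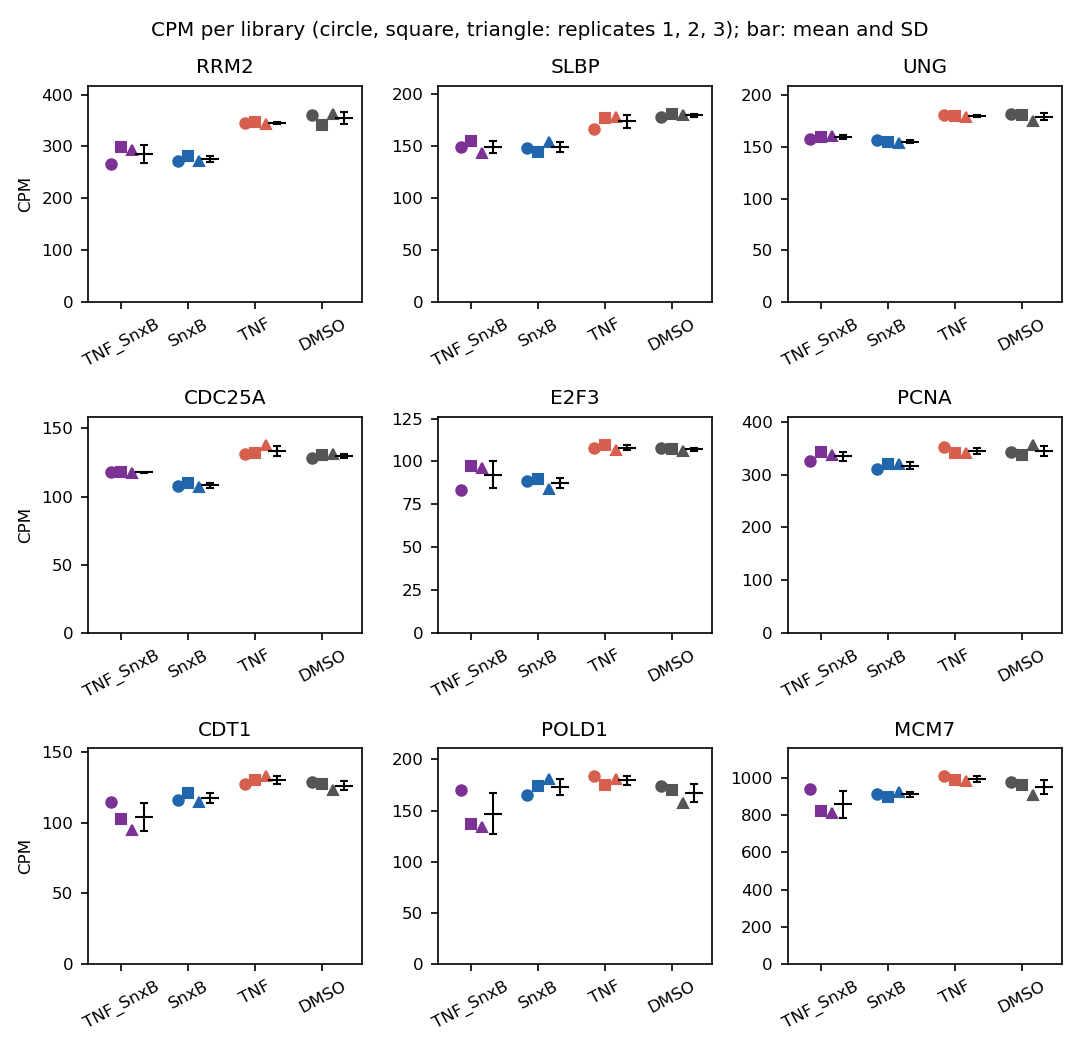
CPM per library for 9 genes in TNF_SnxB, SnxB, TNF and DMSO cells, with circles, squares and triangles for replicates 1, 2 and 3 and bars for the mean ± SD of 3 libraries. RRM2, SLBP, UNG, CDC25A and E2F3 are low in both groups with Senexin B, while for CDT1, POLD1 and MCM7 the values of TNF_SnxB replicates 2 and 3 lie below replicate 1.

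The 5 fell in each of the other ways of scaling, filtering and leaving out a library that were tried, except that none passed a test for a change of at least 1.2-fold. Further members were just outside the threshold. MCM4 passed in 5 of 16 alternatives, PCNA in 3, MCM3 in 2 and CDT1 in 1. With only the compared groups fitted, the members called as lower numbered 8, where 3.79% of all genes were, and they were the 5 with PCNA, MCM4 and MCM3. PCNA had 310.2, 321 and 320.1 CPM in SnxB cells, against 343, 338 and 356 CPM in DMSO cells, with a log2 fold change of -0.12 (adjusted p = 0.0716). MCM4 had 466, 474 and 478 CPM in SnxB cells, against 506, 508.5 and 502 CPM in DMSO cells, with a log2 fold change of -0.10 (adjusted p = 0.122). Both groups were apart without overlap for PCNA and MCM4, and the sizes were smaller than those of the 5.

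By role, the rest did not pass the test with all libraries fitted. Log2 fold changes of the 6 MCM2-7 helicase genes lay between -0.10 and 0.04, those of the clamp loader genes RFC1 to RFC5 between -0.07 and 0.02, and those of the licensing factors ORC1, CDC6 and CDT1 between -0.10 and 0.00. In the activation group, which includes GINS and CDC45, they lay between -0.11 and 0.11, and in the polymerase and primase genes between -0.08 and 0.05. The other nucleotide genes RRM1, TYMS and TK1, unlike RRM2, were at -0.00, 0.02 and -0.07. The chromatin assembly factors CHAF1A, CHAF1B and ASF1B were between -0.05 and 0.02. The cyclins CCNE1 and CCNE2 were at -0.20 and -0.19 with 95% intervals of -0.36 to -0.04 and -0.40 to 0.02, so that a fall as large as that of UNG lies within both. The repressors E2F7 and E2F8 were at -0.12 and -0.13, and CDK2 was at 0.02.

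Other genes of the pathway were counted from 4 lists. Of 24 genes of G1/S control, 1 rose and 2 fell with Senexin B. CCND1, cyclin D1, had 50.03, 54.0 and 51.7 CPM in SnxB cells, against 71.7, 74.7 and 71.4 CPM in DMSO cells, a log2 fold change of -0.48 (adjusted p = 1.57e-05). CCND2, cyclin D2, averaged 45.8 CPM against 54.8 CPM, a log2 fold change of -0.26 (adjusted p = 0.0219), and CDKN2C, an inhibitor of the cyclin D kinases, was higher by 0.19 (adjusted p = 0.0233). Of 18 genes of nucleotide synthesis, PPAT, of purine synthesis, fell by 0.21 on the log2 scale (adjusted p = 0.031), and of 11 genes of chromatin assembly RBBP7 fell by 0.15 (adjusted p = 0.0109). Of 36 other replication factors 0 passed the edgeR test, and 7 had an unadjusted p under 0.05. The share of all genes at that unadjusted cut is not given, so no excess can be read from the 7. These list counts moved with the fit. With GC content and length corrected, 1 rose and 3 fell among other replication factors, 1 and 4 in G1/S control, 0 and 4 in nucleotide synthesis and 0 and 5 in chromatin assembly.

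TNF cells were set against DMSO cells to ask what TNFα does in 2 h. Of the 44 genes 0 passed the edgeR test, where 2.02% of all tested genes did. An unadjusted p under 0.05 was found for 1 of the 44, and the share of all genes at that cut is not given. DESeq2 called 0 of the 44, where it called 0.663% of the genes it gave a p for. With only the compared groups fitted, MCM2 and TYMS passed as higher, at 0.08 and 0.09 on the log2 scale, where 3.26% of all genes did. In the fit with TNF_SnxB replicate 1 alone MCM2, TYMS and MCM7 passed as higher, at 0.08, 0.09 and 0.07, where 3.41% did. With GC content and length corrected 0 of the 44 passed, where 3.99% of all genes did. Log2 fold changes lay between -0.09 and 0.13, with a median of 0.01 against -0.00 over all tested genes. CCNE1, cyclin E1, which binds CDK2 at the G1/S boundary, had the largest change. It had 25.6, 27.7 and 29.04 CPM in TNF cells, against 24.65, 26.1 and 24.75 CPM in DMSO cells, with a log2 fold change of 0.13 (95% interval -0.00 to 0.27, adjusted p = 0.529). The groups overlapped.

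POLD1, the catalytic subunit of DNA polymerase delta, had 184, 175 and 181 CPM in TNF cells, against 174, 170.4 and 157 CPM in DMSO cells. Its log2 fold change was 0.10 (adjusted p = 0.612), and TNF libraries were all above the DMSO libraries by a narrow margin. RFC1, the large subunit of the clamp loader, had 129, 132 and 134 CPM in TNF cells, against 141, 135 and 143 CPM in DMSO cells, with a log2 fold change of -0.08 (adjusted p = 0.550). All 3 TNF libraries were below the DMSO libraries. In all, the groups did not overlap for 8 higher (18.2%) and 3 lower (6.82%) members, against 10.2% and 10.0% of all tested genes. In the 4 other lists, 0 genes passed the edgeR test with TNFα, and 2, 3, 0 and 0 had an unadjusted p under 0.05 among other replication factors, G1/S control, nucleotide synthesis and chromatin assembly. The share of all genes at that unadjusted cut is again not given. With GC content and length corrected, CDKN2C and CDKN1B, inhibitors of G1 kinases, passed as lower in the list of G1/S control, at -0.13 and -0.17 on the log2 scale. In that fit 1.69% of all genes passed as lower.

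TNF_SnxB cells were set against TNF cells to ask what Senexin B does when TNFα is present. With all libraries, 18 of the 44 genes (40.9%) fell and 1 rose (2.27%), where 13.9% of all tested genes fell and 13.3% rose. The median log2 fold change was -0.08, against 0.00 over all tested genes. For 19 members (43.2%) all TNF_SnxB libraries were below all TNF libraries and for 1 (2.27%) above, against 16.4% and 15.6% of all tested genes. With GC content and length corrected, 13 (29.5%) fell and 0 rose, where 6.28% of all genes fell and 4.53% rose. With TNF_SnxB replicate 1 alone, whose spread is assumed to be like that of the other groups, 5 (11.4%) fell and 0 rose, where 1.91% of all genes fell and 0.727% rose. Without replicate 1, 23 fell and 9 rose, where 21.9% and 22.9% of all genes did, and 12 were called without replicate 2 and 12 without replicate 3, where 2018 and 1869 of all genes were.

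RRM2 had 266, 299 and 292 CPM in TNF_SnxB cells, against 345.5, 347 and 343 CPM in TNF cells. All TNF_SnxB libraries were below all TNF libraries, and replicate 1 was the lowest. The log2 fold change was -0.27 ± 0.040 (SE, adjusted p = 2.04e-05), and it was -0.32 with GC content and length corrected and -0.38 with replicate 1 alone.

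SLBP had 149, 154 and 143.0 CPM in TNF_SnxB cells, against 166, 177 and 177 CPM in TNF cells, without overlap. The log2 fold change of SLBP was -0.23 ± 0.042 (SE, adjusted p = 0.000359), and it was -0.17 with the correction and -0.23 with replicate 1 alone. UNG had 158, 159 and 161 CPM in TNF_SnxB cells, against 181, 180.4 and 179 CPM in TNF cells. The 3 TNF_SnxB libraries agreed to within a few CPM and lay below all TNF libraries. For UNG the log2 fold change was -0.17 (adjusted p = 0.00155), -0.11 with the correction and -0.19 with replicate 1 alone.

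E2F3 had 83.2, 97.2 and 96.3 CPM in TNF_SnxB cells, against 108, 109.5 and 107 CPM in TNF cells. The groups were apart and replicate 1 was the lowest. The log2 fold change was -0.22 (adjusted p = 0.00187), -0.28 with the correction and -0.38 with replicate 1 alone. CDC25A had 118, 118 and 117 CPM in TNF_SnxB cells, against 131, 132 and 138 CPM in TNF cells, also without overlap. CDC25A changed by -0.18 on the log2 scale (adjusted p = 0.00229), -0.12 with the correction, where it passed, and -0.17 with replicate 1 alone, where it did not.

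The remaining genes with the lowest adjusted p were GC-rich, and their values depended on the library. CDT1, the licensing factor that brings MCM2-7 to origins, has a transcript GC content of 64.9% and had 115, 102.5 and 94.8 CPM in TNF_SnxB cells, against 127, 130 and 133 CPM in TNF cells. Its libraries did not overlap, and replicates 2 and 3 were the lowest. Its log2 fold change was -0.33 (adjusted p = 4.90e-05), -0.09 with the correction, where it did not pass, and -0.18 with replicate 1 alone, where it passed.

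POLD1, at 65.0% GC, had 169.8, 137 and 134 CPM in TNF_SnxB cells, against 184, 175 and 181 CPM in TNF cells. Its log2 fold change was -0.30 (adjusted p = 0.000697), -0.06 with the correction and -0.07 with replicate 1 alone. Neither of these passed. MCM7, at 57.6% GC, had 939.8, 821 and 814 CPM in TNF_SnxB cells, against 1010, 987 and 984 CPM in TNF cells. Its log2 fold change was -0.21 (adjusted p = 0.000336), -0.09 with the correction, where it passed, and -0.08 with replicate 1 alone, where it did not.

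MCM2, at 58.1% GC, had 441, 376 and 379 CPM in TNF_SnxB cells, against 445, 449 and 463 CPM in TNF cells. Replicate 1 lay just below the lowest TNF library, and replicates 2 and 3 far below it. Its log2 fold change was -0.19 (adjusted p = 0.00222), -0.05 with the correction and -0.04 with replicate 1 alone, and neither passed. CDC7, the kinase that activates the loaded helicase, at 39.1% GC, was the single member that rose. It had 129, 153 and 151 CPM in TNF_SnxB cells, against 127, 131 and 127 CPM in TNF cells, with a log2 fold change of 0.17 (adjusted p = 0.014). The change was 0.01 with the correction and -0.00 with replicate 1 alone, and neither passed.

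The other 9 members called with all libraries were MCM3, MCM5, POLE, TK1, CHAF1A, ASF1B, CCNE1, E2F1 and E2F2, with log2 fold changes between -0.29 and -0.14. Of these, MCM3 and CCNE1 also passed with the correction, and none passed with replicate 1 alone. Called with the correction but not without it were GINS1, POLA1, MCM4, MCM6 and CCNE2, at -0.17, -0.12, -0.07, -0.08 and -0.24. The genes called with replicate 1 alone were RRM2, E2F3, SLBP, UNG and CDT1, and CDT1 was lost when the correction was added to that fit.

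**Figure D3:**
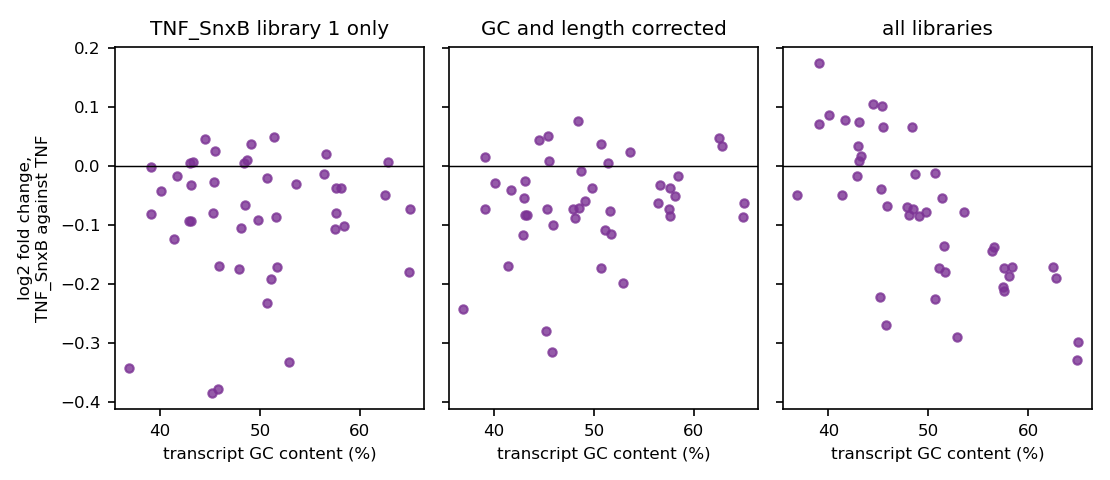
Log2 fold change of TNF_SnxB against TNF cells for the 44 genes against the GC content of their transcripts in percent, with TNF_SnxB replicate 1 alone, with GC content and length corrected, and with all libraries. With all libraries the points slope down with GC content (Spearman's rho -0.756), while rho is 0.149 with the correction and -0.0013 with replicate 1 alone.

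Across the 44 genes, Spearman's rho between the log2 fold change of TNF_SnxB against TNF and transcript GC content was -0.756 with all libraries, 0.149 with the correction and -0.0013 with replicate 1 alone. With all libraries it was 0.11 for SnxB against DMSO, 0.54 for TNF against DMSO, -0.78 for TNF_SnxB against SnxB and -0.82 for the interaction. With the correction these were 0.09, 0.07, 0.23 and 0.15. These correlations describe 44 genes measured in the same libraries and are not over independent points.

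Of the 4 other lists, 10 of 36 other replication factors rose and 5 fell in TNF_SnxB against TNF cells with all libraries, 8 and 5 of 24 genes of G1/S control, 2 and 1 of 18 of nucleotide synthesis, and 0 and 4 of 11 of chromatin assembly. With the correction these were 2 and 4, 3 and 4, 0 and 3, and 0 and 3 in the same order of lists. With replicate 1 alone, 1 gene of G1/S control and 1 of chromatin assembly fell and 0 rose in any list. These were CCND1, at -0.52, and RBBP7, at -0.13. CCND1 had 54.8, 47.7 and 54.8 CPM in TNF_SnxB cells, against 86.8, 78.2 and 71.9 CPM in TNF cells, with a log2 fold change of -0.59 (adjusted p = 6.03e-08) with all libraries and -0.55 with the correction. The groups did not overlap.

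**Figure D4:**
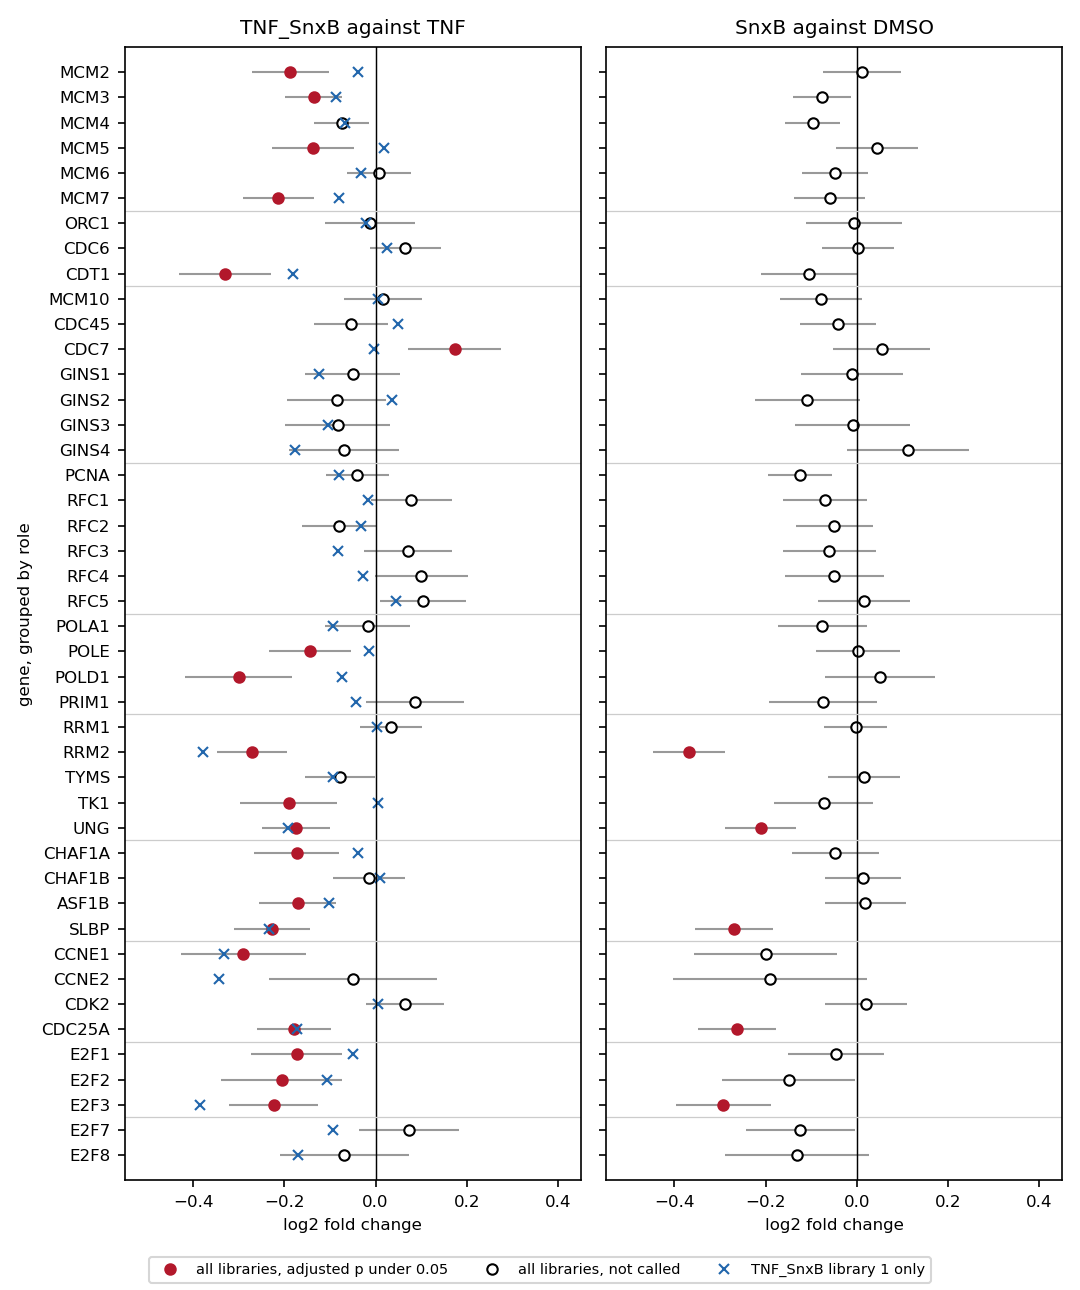
Log2 fold change with its 95% interval for the 44 genes in TNF_SnxB against TNF cells (left) and SnxB against DMSO cells (right), with called genes in red and, on the left, crosses for TNF_SnxB replicate 1 alone. RRM2, SLBP, UNG, CDC25A and E2F3 are called on both sides, and for POLD1 the cross lies at -0.07, to the right of its value of -0.30 with all libraries.

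The 2 comparisons of Senexin B share no library. All 5 members lower in SnxB against DMSO were among the 18 lower in TNF_SnxB against TNF, that is 5 of 5 and 5 of 18. With GC content and length corrected, 6 were lower in SnxB against DMSO, where 3.31% of all genes were, and 13 in TNF_SnxB against TNF, and 6 were in both. With TNF_SnxB replicate 1 alone, 8 were lower in SnxB against DMSO, where 4.08% of all genes were, and 5 in TNF_SnxB against TNF, and 4 were in both. Across the 44 genes, the log2 fold changes of the 2 comparisons had a Pearson's r of 0.408 with all libraries, 0.731 with the correction and 0.727 with replicate 1 alone. Spearman's rho was lower, at 0.322, 0.634 and 0.559 in the same order. The correlation over all genes and the share of all genes lower in both comparisons are not given.

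TNF_SnxB cells were also set against SnxB cells to ask what TNFα does under the inhibitor. With all libraries, 3 of the 44 genes (6.82%) fell and 0 rose, where 6.83% of all genes fell and 7.38% rose, so the share that fell was that of all genes. They were POLD1, CDT1 and MCM5. POLD1 had 169.8, 137 and 134 CPM in TNF_SnxB cells, against 165, 173.5 and 181 CPM in SnxB cells, with a log2 fold change of -0.25 (adjusted p = 0.00937). Replicate 1 lay within the SnxB range.

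CDT1 had 115, 102.5 and 94.8 CPM in TNF_SnxB cells, against 116, 121 and 114 CPM in SnxB cells, with a log2 fold change of -0.18 (adjusted p = 0.0272). MCM5, a helicase subunit, had 387, 339 and 319 CPM in TNF_SnxB cells, against 378, 387 and 390.0 CPM in SnxB cells, with a log2 fold change of -0.15 (adjusted p = 0.0324). For both, replicate 1 again lay within the SnxB range. With replicate 1 alone the 3 log2 fold changes were -0.03, -0.03 and 0.01 and 0 members passed the edgeR test, where 1.43% of all genes did. Leaving out TNF_SnxB replicate 1 gave 23 calls, where 35.7% of all genes were called. Leaving out SnxB replicate 1 or 2 gave 1 each, where 913 and 1008 of all genes were called. Leaving out SnxB replicate 3 or TNF_SnxB replicate 2 or 3 gave 0, where 755, 570 and 512 of all genes were called. With the correction none of the 3 passed and CDC25A passed as higher, where 2.77% of all genes did. Of the other lists, 3 replication factors rose and 4 fell, 2 and 2 genes of G1/S control, 3 and 1 of nucleotide synthesis, and 2 and 0 of chromatin assembly, with all libraries. With the correction 1 replication factor and 1 gene of G1/S control rose and no other gene of the 4 lists passed, and with replicate 1 alone 0 passed the edgeR test.

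The difference between the Senexin B effect with TNFα and that without it was tested as an interaction. It passed for 1 of the 44 genes (2.27%), POLD1, where 2.50% of all tested genes passed. It passed for 0 with the correction, where 0.263% of all genes did, and for 0 with replicate 1 alone, where 0.124% did. Leaving out TNF_SnxB replicate 1 gave 18 calls, where 30.0% of all genes were called. Leaving out DMSO replicate 2 gave 1, where 336 of all genes were called. Leaving out any other single library gave 0, where 3 to 16 of all genes were called. For RRM2 the interaction was 0.10 on the log2 scale with a 95% interval of -0.01 to 0.21 (adjusted p = 0.304). For SLBP, UNG, CDC25A and E2F3 it was 0.04, 0.04, 0.08 and 0.07, and none passed. A miss of the threshold does not show that Senexin B acted alike with and without TNFα. Of the other replication factors, POLD2 and CHTF18 passed as lower with all libraries, at -0.23 and -0.37, and 0 genes of the remaining 3 lists did. Both are GC-rich, at 59.1% and 69.1%. They were at -0.08 and -0.00 with the correction and at -0.11 and -0.16 with replicate 1 alone, and neither passed in either.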

How the data were processed

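Total RNA of HEK293 cells, taken with a column kit, was made into Illumina TruSeq RNA libraries, per the labels. The deposited values are raw counts, 1 column for each of the 12 libraries. The submitters' processing notes name hg38, Subread 1.4.6 with featureCounts, SAMtools 1.2 and STAR 2.4; neither strand setting nor annotation is given in the sources.

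Genes passing filterByExpr were scaled by TMM and fitted over all 12 libraries with edgeR 4.0.16 in R 4.3.3. Contrasts were tested with its quasi-likelihood F test, two-sided, with p values adjusted over 14822 genes by the Benjamini-Hochberg method and called under 0.05. SE is the log2 fold change over the root of F, and 95% intervals are 1.96 SE either way. CPM carry the TMM scaling. Intervals and the floor of 3 counts cover the spread between libraries and counting error only.

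Alternatives were the size factors and Wald test of DESeq2 1.42.0, no filter, the compared groups only, the replicate number as a block, a test for at least 1.2-fold, leaving out each library, TNF_SnxB replicate 1 alone, and offsets for GC content and length (loess, span 0.3, on log2 CPM with a prior count of 2, with GENCODE 29 transcripts). Replicate 1 alone with those offsets was chosen after seeing the data. Figures used matplotlib 3.10.9 in Python 3.11.15.

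The members and lists were chosen with earlier results of these data known. Values in every library are given for called members, at most 8 in each direction by adjusted p, or for the 3 largest changes where fewer than 3 were called; PCNA, MCM4 and CCND1 were added to these, as was CDC25A in TNF_SnxB against TNF. The steps were tested on simulated counts at the members' levels: for SnxB against DMSO, 69% of genes changed 1.2-fold and 99% of those changed 1.5-fold were called. For TNF_SnxB against TNF these were 81% and 100%, and for the interaction 39% and 100%. These simulated libraries carried no GC trend, unlike TNF_SnxB replicates 2 and 3, so the shares in the real libraries may differ. A planted GC trend gave 148 calls before and 2 after the offsets in TNF_SnxB against TNF, where the real libraries gave 4029. It was planted with the same loess that the offsets use. Its removal therefore does not test how well the offsets work on the real libraries.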

Additional observations from a re-analysis of the deposited data

Results flagged for a closer look

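POLD1, the catalytic subunit of DNA polymerase delta, is listed because its TNFα effect differed with and without Senexin B, by a test of the difference itself. The TNFα effect with minus that without Senexin B was -0.351 on the log2 scale (adjusted p = 0.0356 by edgeR's quasi-likelihood test). POLD1 had 169.8, 137 and 134 CPM in TNF_SnxB cells, 165, 173.5 and 181 CPM in SnxB cells, 184, 175 and 181 CPM in TNF cells, and 174, 170.4 and 157 CPM in DMSO cells. TNF_SnxB replicates 2 and 3, which carried the trend with GC content, were the lowest of all. With GC content and length corrected the difference was -0.10, and with TNF_SnxB replicate 1 alone it was -0.12, and neither passed the test. Leaving out any single library other than DMSO replicate 2 or TNF_SnxB replicate 1 also ended the call, with values between -0.45 and -0.29 over all 12 libraries left out in turn. The omissions that ended it left 3 to 16 calls over all genes, against 370 with every library, so the loss was not particular to POLD1. POLD1 shares 8.64% of its exon length with AC020909.1 on the same strand.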

How the results depend on the processing

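The number of members called was recomputed under each alternative. For TNF against DMSO it was 0, 2 with only the compared groups fitted and 3 with TNF_SnxB replicate 1 alone. For SnxB against DMSO it was 5, and 8 with only the compared groups, where 742 of all genes were called. It was 0 for at least 1.2-fold, where 65 of all genes were called. On leaving out single libraries it was 5 to 5, where 172 to 208 of all genes were called. For TNF_SnxB against TNF it was 19, 12 with the replicate block and GC offsets, 5 with replicate 1 alone, 4 with that and the offsets, 0 for at least 1.2-fold, and 12 to 32 on leaving out single libraries, the 32 without TNF_SnxB replicate 1 and the 12 without its replicate 2 or 3. For TNF_SnxB against SnxB it was 3, 0 with only the compared groups, 1 with GC offsets, 1 with these and the replicate block, 0 with replicate 1 alone, with or without offsets, 0 for at least 1.2-fold, and 0 to 23 on leaving out single libraries, the 23 without TNF_SnxB replicate 1. For the interaction it was 1, 2 by DESeq2, 2 without the filter, 2 with the replicate block, 0 with GC offsets, with or without the block, 0 with replicate 1 alone, with or without offsets, 0 for at least 1.2-fold, and 0 to 18 on leaving out single libraries, the 18 without TNF_SnxB replicate 1. In a fit over all libraries the groups share an estimate of each gene's spread. TNF_SnxB libraries therefore also enter the tests of TNF and SnxB against DMSO. Why the counts moved was not tested. Over all genes, the block with GC offsets gave 726 calls for TNF_SnxB against SnxB and 60 for the interaction. DESeq2 called 474 genes for the interaction. The test for at least 1.2-fold called 88 genes for TNF_SnxB against SnxB and 1 for the interaction.

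Some log2 fold changes turned sign. For TNF_SnxB against TNF with GC offsets MCM6 was -0.083, TK1 0.033 and E2F1 0.046, and with the replicate block added MCM6 was -0.081, TK1 0.032 and E2F1 0.034. With replicate 1 alone MCM5 was 0.019, CDC7 -0.002 and TK1 0.006. With replicate 1 and offsets MCM5 was 0.027, CDC7 -0.022, POLE 0.046, TK1 0.101 and E2F1 0.025. For TNF_SnxB against SnxB CDT1 was 0.017 with GC offsets, with or without the block, MCM5 0.008 with replicate 1 alone and POLD1 0.007 with replicate 1 and offsets.

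Over all tested genes, SnxB against DMSO had 301 calls, 742 with only the compared groups, 699 with GC offsets and 864 with TNF_SnxB replicate 1 alone. TNF against DMSO had 300, and 776, 592 and 858 under these. TNF_SnxB against TNF had 4029, and 2442, 1602 and 403. TNF_SnxB against SnxB had 2106, and 504, 690 and 219. The interaction had 370, and 39 with GC offsets, 19 with replicate 1 alone, 736 with the replicate block and 711 without the filter.

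Replicate numbers did not pair the libraries: correlations of deviations between same-numbered libraries of different groups were between -0.0402 and 0.0942, with 0 of 18 above 0.1, and 3 of 12 libraries were closest to their own number. In simulated counts a 1.2-fold interaction was called for 39% of genes, against 69% or more in the pairwise comparisons, which limits what a miss in the interaction shows.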

Other observations

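Overlaps with neighbouring genes limit the values of other members. For overlaps on the opposite strand this depends on the strand setting of the counting, which is not given. TYMS, thymidylate synthase, shares 39.1% of its exon length with ENOSF1, and CCNE2, a cyclin E, shares 37% with INTS8, both on the opposite strand. MCM2 shares 22.7% with AC023593.1, GINS4 shares 21.2% with AC009630.2 and MCM7 shares 8.94% with AP4M1, each on the opposite strand. PRIM1 shares 14.9% with AC117378.1 on the same strand, where no strand setting would tell them apart.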
